A study of Mus musculus with 16 samples.

Results

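Transcripts of the oligodendrocyte lineage were followed in RNA from the mouse striatum, in whole tissue and on ribosomes tagged in astrocytes. The set held 29 genes out of the 20730 in each deposited table. It was a list of names, 17 genes of mature, myelinating oligodendrocytes (Mbp to Myrf) and 12 genes of their precursors and early stages (Pdgfra to Nkx2-2). All 29 were found in all 16 libraries.

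The libraries came from the whole striata of 8 adult C57BL/6N mice. The 4 PMCA mice had received an adeno-associated virus (AAV) for hPMCA2w/b, a human plasma membrane pump that exports calcium from the cell and was used to suppress calcium signals in astrocytes. The 4 control mice had received an AAV for a control protein instead. Every mouse, control or PMCA, also received a RiboTag AAV, which puts the ribosomal protein Rpl22 with a haemagglutinin (HA) tag into astrocytes, and each gave an IP library of RNA precipitated through the tag and an input library of the cleared lysate. The groups were therefore PMCA IP, control IP, PMCA input and control input, with 4 libraries from 4 separate animals in each. The labels do not name the promoters of the vectors, the sex of the mice or their age beyond adult.

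Oligodendrocytes wrap axons in myelin, a multilayered membrane rich in a few proteins and in galactolipids. They arise from precursors that carry the growth factor receptor PDGFRA and the proteoglycan NG2 and that persist in the adult striatum, where bundles of myelinated fibres cross the grey matter. The transcription factors OLIG2, SOX10 and NKX2-2 specify the lineage, and MYRF, induced by SOX10, switches on the myelin genes as cells mature. Several of these messages, that of Mbp above all, are carried along the processes and translated beside the myelin sheath.

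Levels are given in log2 CPM, the deposited unit, which is the reads of a gene scaled to a common library total, on a log2 scale. Total reads were 48.1 to 55.1 M in PMCA IP and 46.8 to 58.5 M in control IP, against 32.3 to 40.9 M in PMCA input and 33.1 to 40.2 M in control input. A member had between 34 reads (Bmp4 in control IP 4) and 128459 reads (Mbp in control IP 4) in a library, so all 29 passed the requirement of 10 reads in 4 libraries of each comparison. Tests were limma fits across all genes, called at an adjusted p below 0.05 after Benjamini-Hochberg adjustment over every gene tested. In bulk RNA, fewer cells of a type and less RNA per cell cannot be told apart. The spans of 13 members overlap another annotated gene, 4 of them a protein-coding one (Aspa with Spata22, Cnp with Dnajc7, Gpr17 with Lims2, Matn4 with Rbpjl). The library kit keeps the strand, but the counting of reads from overlapping genes is not described in the labels, so these values are uncertain to that extent.

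The tag and the marker genes of other cells set the frame for the IP. All 12 astrocyte markers were higher in IP than in input in PMCA mice and in control mice, with median log2 folds of 3.28 and 3.20. All 10 microglia markers (-5.02 in PMCA mice and -5.72 in control mice) and all 8 endothelial markers (-3.36 and -4.2) were lower, as were 10 of 12 neuron markers in PMCA mice and 9 of 12 in control mice (-1.08 and -0.86). Rpl22, the tagged gene, lay at 8.01 to 8.22 in PMCA IP against 9.62 to 9.92 in control IP, and at 6.59 to 6.79 in PMCA input against 7.48 to 7.77 in control input. The control IP library of mouse 4 was the highest of the 8 IP libraries for all 17 mature genes, as given below. The results that it moves most are also given without it. Xist, the RNA of the inactive X chromosome, had values from 4.98 to 9.11 in all libraries of 2 mice, PMCA 3 and control 4, and of -0.09 or less in all others, and the Y-linked Ddx3y was at 6.35 or more in all libraries but theirs, where it was at -1.64 or less; both genes were looked up after the data were seen.

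**Figure D1:**
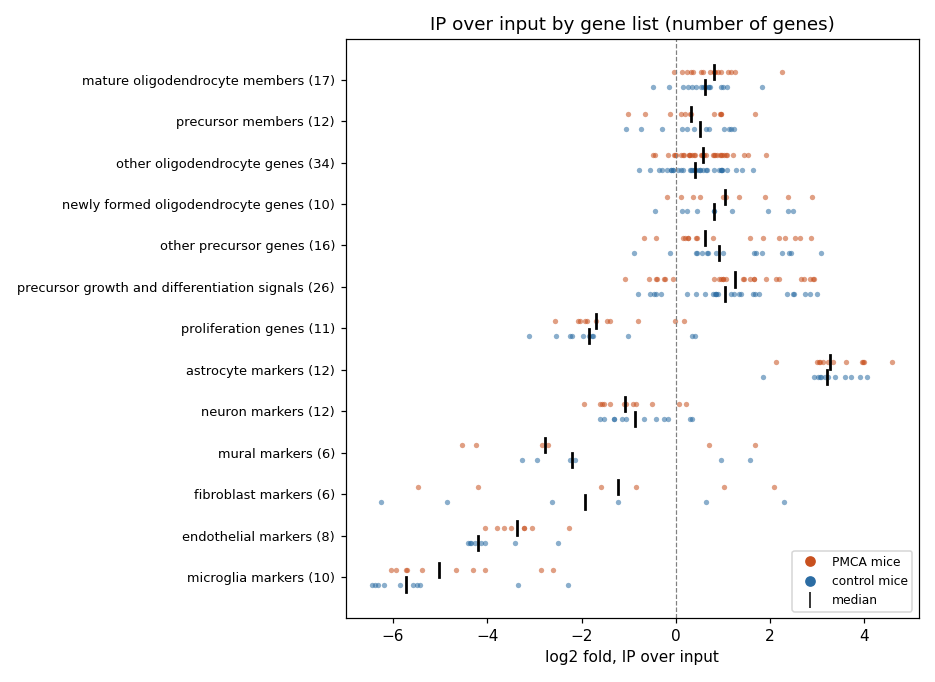
Log2 fold of IP over input for each gene (point) of the member classes and of the comparison lists, in PMCA mice (orange, upper line of each pair) and control mice (blue), with the median of each list as a black bar (4 mice per treatment). The medians of the member classes lie near 0.3 to 0.8, far below those of the astrocyte markers at 3.28 and 3.20 and far above those of the microglia markers at -5.02 and -5.72. Myrf, the highest member, is at 2.25 in PMCA mice, above the lowest astrocyte marker at 2.13. In control mice it is at 1.82, just below the lowest astrocyte marker at 1.84.

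Most oligodendrocyte transcripts were moderately more abundant in IP than in the lysate. In PMCA mice 21 of 29 members were higher in IP and 2 were lower, and in control mice 19 were higher and 3 lower. Over all genes tested, 76.7% were called in PMCA mice (37.5% higher and 39.3% lower in IP) and 77.4% in control mice (39.1% higher and 38.3% lower), so the share called overall was near the background, while its direction was mostly upward. The median log2 fold of the 29 was 0.73 in PMCA mice and 0.62 in control mice, against -0.04 and -0.002 over all genes. That ratio depends on the authors' scaling between fractions, which used factors of 0.89 to 0.92 in IP and 1.1 to 1.12 in input. Without the factors the median over all genes lay at -0.35 in PMCA mice and -0.28 in control mice, and the members called were 16 higher and 4 lower in PMCA mice and 10 higher and 4 lower in control mice. Of the 16360 genes tested in PMCA mice, 4300 were then higher and 8891 lower, and of the 16099 in control mice 4504 were higher and 8382 lower. Without control 4 the median of the 29 in control mice fell to 0.42, with 19 members higher and 5 lower in IP, against 75.3% of all genes called.

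Of the 17 mature genes, 15 were higher in IP and none lower in PMCA mice (median log2 fold 0.81), and 11 were higher and 1 lower in control mice (0.62). Without control 4 the median in control mice was 0.41, with 11 higher and 2 lower. Myrf, the transcription factor of myelin gene expression, was the most enriched. It lay at 7.20, 7.10, 7.27 and 7.19 log2 CPM in PMCA IP against 4.98, 5.0, 4.89 and 4.88 in PMCA input, a log2 fold of 2.25 (SE 0.053, adjusted p 1.7e-10). In control IP it lay at 6.00, 6.14, 6.50 and 7.29 against 4.82, 4.5, 4.63 and 4.68 in control input, a log2 fold of 1.82 (SE 0.228, adjusted p 2.56e-05). IP and input were far apart in every mouse, with a difference of 2.10 to 2.37 within PMCA mice and of 1.18 to 2.60 within control mice. Without control 4 the log2 fold in control mice was 1.56.

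The next mature genes each differed by about 1 log2 unit. Gpr37, an orphan receptor of oligodendrocytes, was at 7.82, 7.89, 7.91 and 7.83 in PMCA IP against 6.62, 6.86, 6.59 and 6.67 in PMCA input (log2 fold 1.18, SE 0.0628, adjusted p 4.08e-08). It was at 7.57, 7.73, 7.88 and 8.5 in control IP against 6.80, 6.69, 6.82 and 7.0 in control input (1.09, SE 0.167, adjusted p 0.000119). Trf encodes transferrin, the iron carrier that oligodendrocytes make, and lay at 10.44, 10.50, 10.74 and 11.03 in PMCA IP against 9.27, 9.45, 9.43 and 9.52 in PMCA input (1.26, SE 0.122, adjusted p 4.48e-06). Its values in control IP were 9.67, 10.20, 10.47 and 11.27 against 9.17, 9.22, 9.5 and 9.73 in control input (1.0, SE 0.276, adjusted p 0.00659), and in control mice the fractions overlapped, with IP 1 below input 4. Cnp, the enzyme that keeps cytoplasmic channels open in myelin, was at 9.88, 9.96, 10.01 and 9.88 in PMCA IP against 8.81, 8.96, 8.74 and 8.78 in PMCA input (1.11, SE 0.0637, adjusted p 7.06e-08). In control IP it was at 9.5, 9.70, 9.92 and 10.49 against 8.93, 8.81, 9.01 and 9.05 in control input (0.95, SE 0.174, adjusted p 0.000448). For Cnp the fractions did not overlap in either treatment. Without control 4 the log2 folds in control mice were 0.96 for Gpr37, 0.82 for Trf and 0.79 for Cnp, all still called.

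Mobp and Mbp, messages of the compact myelin sheath, stood at the other end of the class. Mobp, a small basic myelin protein, lay at 7.85, 7.89, 7.89 and 7.91 in PMCA IP against 8.04, 8.10, 7.81 and 7.71 in PMCA input, a log2 fold of -0.03 (SE 0.082, adjusted p 0.767). In control IP it lay at 7.09, 7.30, 7.67 and 8.27 against 8.04, 7.96, 8.15 and 8.12 in control input, a log2 fold of -0.49 (SE 0.203, adjusted p 0.0475). In control mice 3 of the 4 IP libraries were below every input and IP 4 was above every input, and the call did not hold without control 1, 2 or 3 (adjusted p 0.121 to 0.172), without a filter on low reads (0.051) or with voom weights (0.0504). Without control 4 Mobp was lower in control IP by a log2 fold of -0.70 (adjusted p 0.00105). Mbp, the main basic protein of myelin, was at 10.83, 11.04, 11.01 and 10.73 in PMCA IP against 10.82, 11.0004, 10.66 and 10.65 in PMCA input (0.12, SE 0.102, adjusted p 0.294), and at 10.42, 10.50, 10.84 and 11.55 in control IP against 11.02, 10.86, 10.98 and 11.04 in control input (-0.15, SE 0.209, adjusted p 0.536). Its fractions overlapped in both treatments, and without control 4 Mbp was lower in control IP by a log2 fold of -0.36 (adjusted p 0.0322). Control IP 4 was the highest control IP library for Mobp and for Mbp. Leaving control 4 out therefore lowers both folds of IP over input by construction.

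The other mature genes were the adhesion protein Mag, the tetraspan proteins Cldn11 and Tspan2, the actin-linked Ermn, the aspartoacylase Aspa, the sphingolipid hydroxylase Fa2h, the galactolipid enzyme Ugt8a, the raft protein Mal, Mog, Opalin and the transcription factor Sox10. All 11 were higher in IP in PMCA mice, with log2 folds of 0.24 (Ugt8a) to 0.95 (Mag). In control mice 7 of them were higher, with log2 folds of 0.54 (Aspa) to 0.73 (Mag), and those 7 had 0.34 (Aspa) to 0.54 (Sox10) without control 4, Mag being at 0.52. In control mice Mal (0.26, adjusted p 0.217), Mog (0.15, adjusted p 0.532), Opalin (0.44, adjusted p 0.113) and Ugt8a (0.34, adjusted p 0.233) did not pass. With the mouse as a block, which uses the pairing of each IP with its own input, Opalin and Ugt8a also passed in control mice (adjusted p 0.0169 and 0.0227). Some calls of this class and of the precursor genes turned on a single mouse. Leaving out each PMCA mouse in turn gave 18 to 22 members higher and 0 to 3 lower in IP, and leaving out each control mouse gave 13 to 19 higher and 2 to 5 lower. Calls over all genes fell too. They were 11140 to 12292 of 15851 to 15986 genes tested in PMCA mice, against 12550 of 16360 with every mouse. In control mice they were 10917 to 11695 of 15528 to 15560, against 12460 of 16099. Cldn11, Ermn and Gpr17 did not pass without control 2 or without control 3, Neu4 without control 2, and Mag, Fa2h and Sox10 without control 3. In PMCA mice Ugt8a and Neu4 did not pass without PMCA 3 or without PMCA 4, and Mal without PMCA 3. Enpp6 was lower in IP without PMCA 4 in PMCA mice and without control 4 in control mice, and Pdgfra was higher in PMCA mice without PMCA 1.

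The 12 precursor genes went both ways. In PMCA mice 6 were higher in IP and 2 lower (median log2 fold 0.31), and in control mice 8 were higher and 2 lower (0.51, and also 0.51 without control 4). Nkx2-2, a homeodomain factor of precursors that are about to differentiate, led the class in both treatments. It lay at 3.02, 3.02, 3.27 and 3.10 in PMCA IP against 1.46, 1.28, 1.51 and 1.43 in PMCA input (log2 fold 1.68, SE 0.102, adjusted p 1.08e-07). In control IP it lay at 2.09, 2.73, 2.65 and 2.85 against 1.29, 1.41, 1.21 and 1.46 in control input (1.24, SE 0.165, adjusted p 4.14e-05). Its fractions did not overlap in either treatment.

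Cspg4, which encodes the proteoglycan NG2, was at 5.42, 5.60, 5.85 and 5.52 in PMCA IP against 4.93, 4.76, 4.77 and 4.65 in PMCA input (0.82, SE 0.0953, adjusted p 1.88e-05), and at 5.59, 5.76, 5.95 and 5.81 in control IP against 4.75, 4.34, 4.37 and 4.94 in control input (1.18, SE 0.132, adjusted p 1.09e-05). Pericytes also carry NG2, and of the 6 mural cell markers 4 were lower and 2 higher in IP in each treatment. Matn4, a matrix protein of precursors, was at 3.84, 3.81, 4.22 and 3.58 in PMCA IP against 2.83, 2.87, 3.10 and 2.84 in PMCA input (0.95, SE 0.13, adjusted p 6.24e-05), and at 3.79, 4.04, 4.12 and 4.33 in control IP against 3.05, 2.53, 3.12 and 3.10 in control input (1.12, SE 0.151, adjusted p 4.33e-05). Olig2, the lineage factor that some astrocytes also express, was at 5.18, 5.26, 5.55 and 5.47 in PMCA IP against 4.34, 4.5, 4.43 and 4.40 in PMCA input (0.95, SE 0.086, adjusted p 2.67e-06), and at 4.94, 5.37, 5.73 and 6.22 in control IP against 4.49, 4.24, 4.66 and 4.77 in control input (1.03, SE 0.228, adjusted p 0.00172). For Cspg4, Matn4 and Olig2 every IP library lay above every input of its treatment.

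Bmp4 and Lhfpl3 were lower in IP. Bmp4, a growth factor made by early differentiating oligodendrocytes, was the faintest member, at 0.50, 0.43, 0.60 and -0.36 in PMCA IP against 1.07, 1.03, 1.03 and 0.67 in PMCA input (log2 fold -0.66, SE 0.226, adjusted p 0.0219). In control IP it was at 0.15, 0.02, 0.18 and -0.32 against 1.09, 0.65, 1.3 and 1.23 in control input (-1.06, SE 0.201, adjusted p 0.000593). Lhfpl3, a small membrane protein that marks precursors, was at 3.51, 3.61, 3.94 and 5.47 in PMCA IP against 5.11, 5.14, 5.06 and 5.25 in PMCA input (-1.01, SE 0.355, adjusted p 0.0242), and at 4.53, 4.39, 4.40 and 4.16 in control IP against 5.07, 5.12, 5.15 and 5.07 in control input (-0.74, SE 0.0779, adjusted p 6.7e-06). In PMCA mice 3 IP libraries lay well below the inputs and PMCA IP 4 lay above them, and neither Bmp4 nor Lhfpl3 held in PMCA mice without PMCA 1 (adjusted p 0.0602 and 0.116) or without PMCA 2 (0.0675 and 0.116). Lhfpl3 also did not hold there without PMCA 3 (0.0931).

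Among the other precursor genes, the lineage factor Olig1 was higher in IP by 0.97 in PMCA mice and 0.64 in control mice, and the sialidase Neu4 by 0.33 and 0.38. Pdgfra, the receptor for platelet-derived growth factor, had a log2 fold of 0.20 (adjusted p 0.239) in PMCA mice and of 0.71 (adjusted p 9.39e-05) in control mice. Gpr17, a receptor of cells between precursor and oligodendrocyte, had 0.30 (adjusted p 0.0867) in PMCA mice and 0.23 (adjusted p 0.0372) in control mice. Neither the complement-like C1ql1 (0.11 and 0.13) nor the phosphodiesterase Enpp6 of newly forming oligodendrocytes (-0.13 and -0.30) passed in PMCA or control mice.

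**Figure D2:**
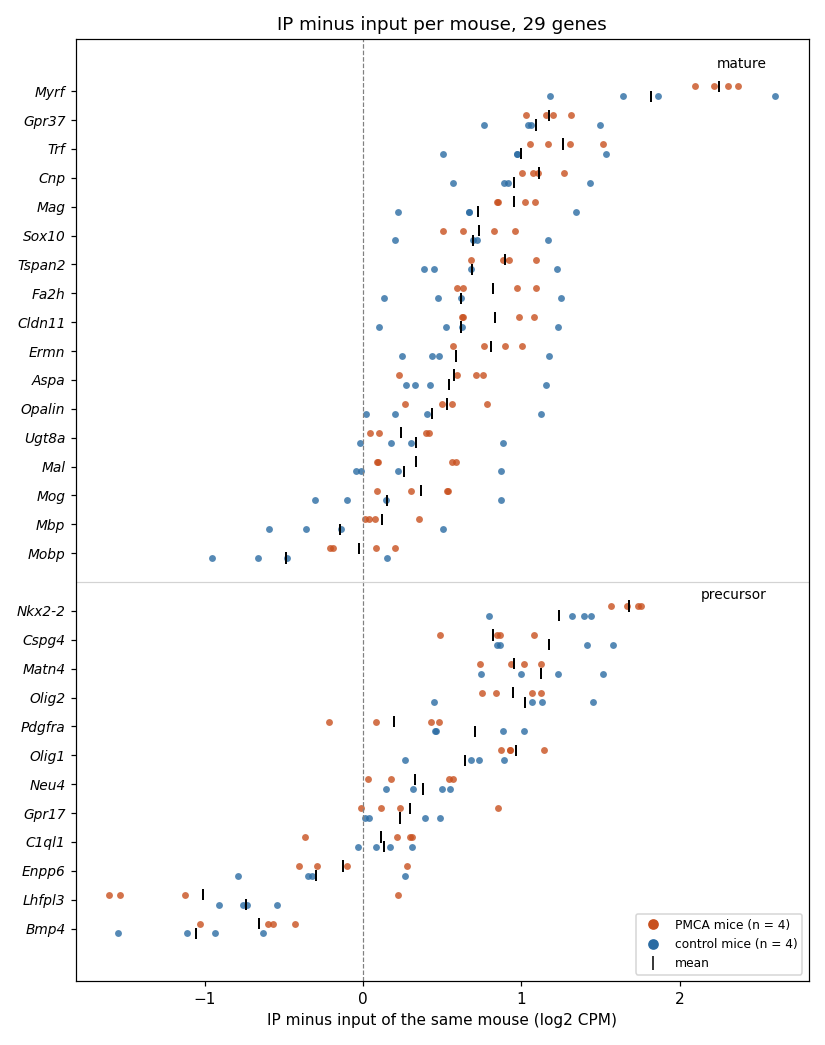
IP minus input within each mouse, in log2 CPM, for the 29 genes ordered by their mean in control mice, with PMCA mice in orange, control mice in blue and the mean of 4 mice as a black bar. Myrf and Nkx2-2 lead their classes, Mobp and Mbp straddle 0, and the control mice spread more widely than the PMCA mice for nearly all mature genes.

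Mature genes moved together from 1 control IP library to the next. Control IP 4 had the highest level of all 8 IP libraries for 17 of 17 mature genes, and control IP 1 the lowest for 16 of 17. The class mean was 7.66, 7.77, 7.91 and 7.90 log2 CPM in PMCA IP 1 to 4, against 7.25, 7.42, 7.73 and 8.44 in control IP 1 to 4. In reads, mature genes took 0.60% to 0.714% of each PMCA IP library, against 1.03% of control IP 4 and 0.446% to 0.635% of the other control IP libraries. Precursor genes as a class spread less than mature genes between the control IP libraries. Their class means were 4.10, 4.17, 4.39 and 4.38 in PMCA IP 1 to 4, against 4.03, 4.23, 4.41 and 4.42 in control IP 1 to 4. Control IP 4 was the highest of the 8 for 5 of 12 precursor genes, and control IP 1 the lowest for 5 of 12. They took 0.0484% of the reads of control IP 4, against 0.0350% to 0.0469% in the other control IP libraries.

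The spread between libraries of a group differed accordingly. The median SD of a mature gene was 0.13 in PMCA IP and 0.56 in control IP, against 0.11 in PMCA input and 0.13 in control input. Over control IP 1 to 3 alone it was 0.26. Over all genes the median SD was 0.14 in PMCA IP and 0.14 in control IP. For precursor genes it was 0.27 in PMCA IP and 0.23 in control IP. Within control IP, Enpp6 (SD 0.55) and Olig2 (SD 0.54) spread about as much as the median mature gene.

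Within a mouse, the median IP minus input of the 17 mature genes was 0.59, 0.63, 0.97 and 0.90 in PMCA mice 1 to 4, against 0.20, 0.45, 0.62 and 1.17 in control mice 1 to 4. The control 4 input was also the highest of the 8 inputs, for 12 of 17 mature genes, but by less, with a class mean of 7.26 against 6.99 to 7.17 in the other control inputs. For precursor genes the same medians were 0.12, 0.24, 0.50 and 0.64 in PMCA mice and 0.29, 0.59, 0.64 and 0.36 in control mice, where control 4 lay within the range of the other control mice.

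Other cell types in the same library did not all move with these genes. In control IP 4 the mean of the astrocyte markers was 10.31, within the 10.14 to 10.51 of the other control IP libraries, and that of the neuron markers was 7.71, within 7.51 to 7.96. The microglia marker mean was 1.63, above the 0.93 to 1.18 of the other control IP libraries, and all 10 markers were lower in IP than in input in control mice (log2 folds of -6.45 to -2.28). The fibroblast marker mean of control IP 4 was 0.49, above the -0.25 to 0.18 of the other control IP libraries. Its mural mean of 2.09 was below their 2.25 to 2.36, and its endothelial mean of -0.34 just below their -0.31 to -0.13. The part of these other cells in the level of mature genes was not tested.

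**Figure D3:**
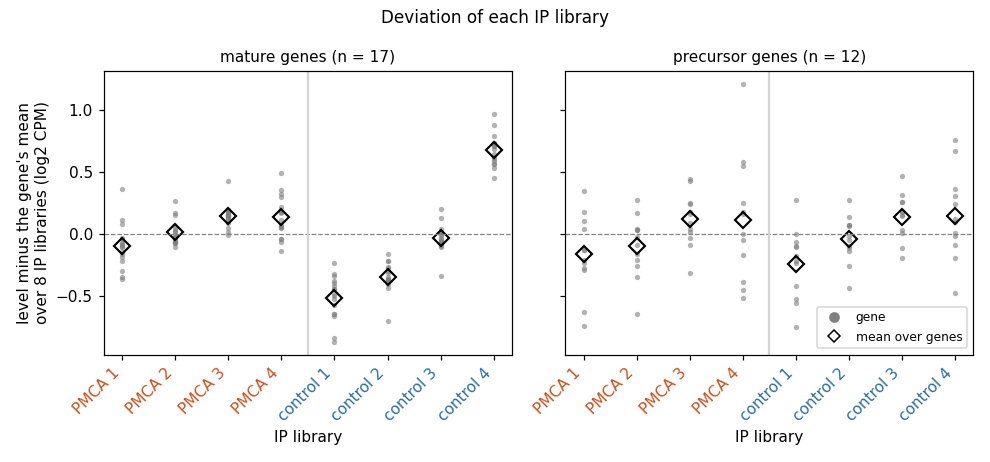
Deviation of each gene (grey point) from its own mean over the 8 IP libraries, in log2 CPM, for 17 mature genes (left) and 12 precursor genes (right), with PMCA libraries left of control libraries and the mean over genes as a diamond. All mature genes are above their mean in control IP 4 and below it in control IP 1 and 2, while precursor genes scatter on both sides of 0 in most libraries.

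Stretches upstream of gene starts are shown for Cnp and Mag, the mature genes whose windows hold both a SOX core and a MYRF core. Mobp, the mature gene with the lowest fold of IP over input in both treatments, is shown as well. Whether such motifs bear on the levels of these genes between libraries was not tested. Nkx2-2, the gene called between treatments, is shown beside them. Each is the 250 bases before the start in the RefSeq promoter table (GRCm38.p6, whose coordinates are those of mm10), written 5′ to 3′ on the gene's strand. Capitals mark ACAAAG or its reverse complement CTTTGT, a core of sites bound by SOX factors, and CTGGCAC or its reverse complement GTGCCAG, a core bound by MYRF.
Mag, chr7:30914923-30915172, minus strand: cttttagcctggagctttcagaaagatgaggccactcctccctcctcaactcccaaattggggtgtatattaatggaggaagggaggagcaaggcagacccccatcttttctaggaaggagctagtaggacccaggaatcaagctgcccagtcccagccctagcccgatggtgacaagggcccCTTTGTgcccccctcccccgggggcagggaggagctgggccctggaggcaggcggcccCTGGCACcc
Cnp, chr11:100574689-100574938, plus strand: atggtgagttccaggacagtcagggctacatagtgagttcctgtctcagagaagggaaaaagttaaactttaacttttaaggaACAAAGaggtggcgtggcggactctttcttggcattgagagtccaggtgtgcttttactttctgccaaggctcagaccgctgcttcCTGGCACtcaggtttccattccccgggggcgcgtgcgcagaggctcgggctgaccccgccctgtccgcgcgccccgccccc
Mobp, chr9:120149492-120149741, plus strand: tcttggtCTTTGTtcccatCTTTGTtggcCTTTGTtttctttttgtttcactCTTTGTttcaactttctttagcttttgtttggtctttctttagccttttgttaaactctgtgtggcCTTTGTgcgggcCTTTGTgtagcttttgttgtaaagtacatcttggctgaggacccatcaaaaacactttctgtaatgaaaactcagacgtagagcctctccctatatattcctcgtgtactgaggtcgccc
Nkx2-2, chr2:147186403-147186652, minus strand: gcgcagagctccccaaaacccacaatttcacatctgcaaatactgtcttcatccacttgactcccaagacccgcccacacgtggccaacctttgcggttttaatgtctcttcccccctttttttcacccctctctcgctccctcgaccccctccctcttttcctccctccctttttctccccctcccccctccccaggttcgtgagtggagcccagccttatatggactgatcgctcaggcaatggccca
Mag holds a SOX core that starts 67 bases and a MYRF core that starts 9 bases before the end of its window, Cnp a SOX core at 167 and a MYRF core at 81 bases, and Mobp 6 SOX cores, all on the other strand. The Nkx2-2 window holds neither. It lies inside the annotated span of that gene, and the end of the Cnp window lies inside the span of Cnp, so a window's end is not always the outermost start of its gene.

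Upstream windows were at hand for 21 members. The SOX core on either strand was in 4 of 12 mature genes (Cnp, Mag, Mobp and Opalin) and in 0 of 9 precursor genes, and in 16.5% of the 32851 windows of all genes. The MYRF core was in 2 of 12 mature genes and 0 of 9 precursor genes, and in 4.2% of all windows. The E-box CAGCTG, its own reverse complement, was in 1 of 12 mature genes (Aspa) and 1 of 9 precursor genes (Lhfpl3), and in 13.0% of all windows. In the 4 windows shown, no match of a motif overlapped a match of another. A match is a run of letters in this window and is not a measured site.

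Between treatments in IP, 1 of 29 members differed. Nkx2-2 was higher in PMCA IP by a log2 fold of 0.52, and 19.6% of all genes tested were called in that comparison. At an unadjusted p below 0.05 there were 3 members, Nkx2-2, Myrf and Pdgfra, against 35.1% of all genes. The median log2 fold was 0.08 over mature genes and -0.11 over precursor genes, against -0.01 over all genes. For the mature genes the wide control IP group gave intervals that reached 0.30 to 0.91 on the upper side for the 16 other than Myrf.

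Nkx2-2 lies at chr2:147176485-147195434. Its levels of 3.02, 3.02, 3.27 and 3.10 in PMCA IP, against 2.09, 2.73, 2.65 and 2.85 in control IP, did not overlap. Among the 29 members 1 had no overlap between treatments in IP, against 25.5% of all genes tested. The log2 fold was 0.52 (SE 0.157, 95% interval 0.17 to 0.87, adjusted p 0.0428). In input the same gene had 1.46, 1.28, 1.51 and 1.43 in PMCA mice against 1.29, 1.41, 1.21 and 1.46 in control mice (0.07, SE 0.125, adjusted p 0.784). The IP call rested close to the threshold. It was not made without control 2 or 3 or without any of PMCA 1 to 4 (adjusted p 0.0589 to 0.113), whereas it was made without control 1 or control 4. It was not made when no filter on low reads was applied (adjusted p 0.0512). Animal numbers fall into a low and a high range, control 4 carrying a high number in its title and a low one in its source name. With the range as a block, the adjusted p of Nkx2-2 was 0.0588 by the title and 0.178 by the source name.

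Myrf, at chr19:10208271-10240777, had the largest fold of the mature genes, 0.71 (SE 0.229, 95% interval 0.20 to 1.22), with an adjusted p of 0.0543. All 4 PMCA IP libraries, at 7.10 to 7.27, were above control IP 1 to 3, at 6.00 to 6.50, and below control IP 4, at 7.29. Without control 4 the log2 fold was 0.98 (adjusted p 0.00273). In input it was 0.28 (SE 0.0689, adjusted p 0.0889), and there the 4.88 to 5.0 of PMCA mice and the 4.5 to 4.82 of control mice did not overlap, as for 9.75% of all genes tested in input. With the range of animal numbers in the titles as a block, Myrf passed in input (0.29, adjusted p 0.0249), and with that in the source names it did not (0.33, adjusted p 0.147).

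Leaving out control 4 changed the calls of mature genes more widely. Control IP 4 was the highest of the 8 IP libraries for 17 of 17 mature genes, so leaving it out raises each of their folds by construction. Leaving out control IP 1, the lowest for 16 of 17, lowers them in the same way. Without control 4, 5 members were higher in PMCA IP, a share near the 17.3% of all genes called in either direction. They were Myrf, Mobp (0.53, adjusted p 0.0196), Mag (0.45, adjusted p 0.0469), Tspan2 (0.39, adjusted p 0.0267) and Nkx2-2. With control 4 the folds of Mobp, Mag and Tspan2 were 0.30, 0.17 and 0.17 (adjusted p 0.325, 0.647 and 0.579). The median log2 fold without control 4 was 0.32 over mature genes and -0.0037 over precursor genes, against -0.0071 over all genes.

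Among precursor genes the PMCA IP libraries differed from each other. Pdgfra, at chr5:75151322-75198206, was at 5.79, 6.07, 6.44 and 6.58 in PMCA IP against 6.35, 6.69, 6.89 and 6.52 in control IP (log2 fold -0.39, SE 0.171, adjusted p 0.131), with PMCA 1 and 2 below every control library and PMCA 3 and 4 within their range. Lhfpl3, at chr5:22746054-23275597, was at 3.51, 3.61 and 3.94 in PMCA IP 1 to 3, all below the 4.16 to 4.53 of control IP, and at 5.47 in PMCA IP 4, above them (-0.24, SE 0.359, adjusted p 0.678). Without PMCA 4 both were lower in PMCA IP, Lhfpl3 by a log2 fold of -0.68 (adjusted p 0.00543) and Pdgfra by one of -0.51 (adjusted p 0.0459), and 22.9% of all genes were then called. PMCA IP 4 was the highest PMCA IP library for both genes, so leaving it out lowers both folds by construction. Pdgfra was also lower with the range of animal numbers in the source names as a block (-0.68, adjusted p 0.022), but did not pass with that in the titles (-0.46, adjusted p 0.0734). PMCA IP 4 also had the highest Gpr17 of the 8 IP libraries, at 6.36 against 5.56 to 5.97 in the other 7, and the lowest Bmp4, at -0.36. Its microglia marker mean of 2.56 was above the 1.86 to 1.92 of the other PMCA IP libraries, mostly through 2 of the 10 markers, Cx3cr1 (5.19 against 2.22 to 2.36) and Tmem119 (3.82 against 0.55 to 0.85), both named after their values were seen. Others were not higher, such as C1qa (2.58 against 2.59 to 2.65). The endothelial marker mean of PMCA IP 4 was 1.07, above the 0.28 to 0.38 of the other PMCA IP libraries. Its neuron (7.55 against 7.29 to 7.37) and mural means (2.03 against 1.33 to 1.64) were also the highest of that group. Its astrocyte mean was the lowest (10.55 against 10.70 to 10.75), and its fibroblast mean of 0.82 lay within 0.70 to 0.91. The part of these other cells in the precursor levels was not tested.

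The remaining precursor genes had folds between -0.21 and 0.28 in IP. Matn4 was at -0.21, Olig2 at -0.20, Cspg4 at -0.18, Neu4 at -0.13 and C1ql1 at -0.09, while Gpr17 was at 0.13, Olig1 at 0.17, Enpp6 at 0.21 and Bmp4 at 0.28. None of the 9 passed (adjusted p 0.249 to 0.716).

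**Figure D4:**
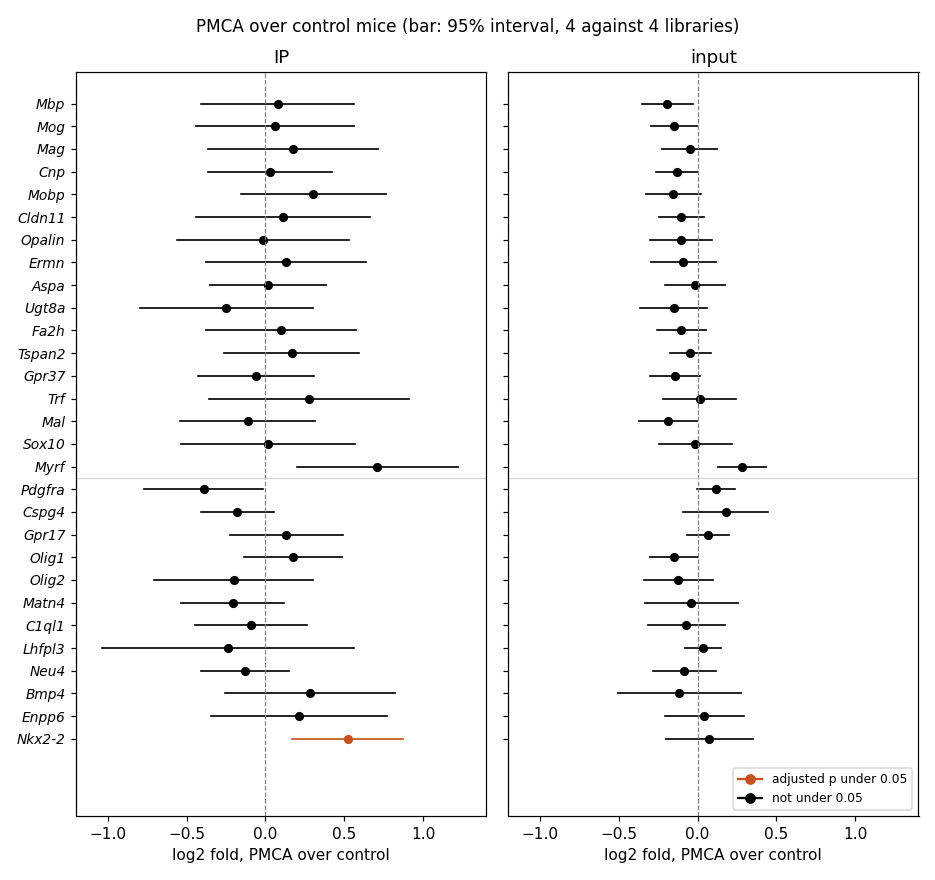
Log2 fold of PMCA over control mice for the 29 genes in IP (left) and input (right), with 95% intervals from limma (4 against 4 libraries), mature genes above the grey line and precursor genes below it. Nkx2-2 in IP is the gene with an adjusted p below 0.05, and Myrf lies at 0.71 in IP and 0.28 in input.

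In the lysate no member differed between treatments by the adjusted test in limma or by limma with voom weights, where 0.441% of all genes were called. At an unadjusted p below 0.05 there were 4 members, against 19.3% of all genes. Myrf was higher in PMCA input, and Mbp (-0.19, adjusted p 0.198), Mal (-0.19, adjusted p 0.248) and Mog (-0.15, adjusted p 0.251) were lower at that unadjusted level. The median log2 fold of mature genes was -0.10, against -0.01 over all genes, and that of precursor genes was -0.0015. The intervals of all 17 mature genes lay between -0.37 and 0.43. Without control 4, Myrf (0.29, adjusted p 0.0363) and Pdgfra (0.17, adjusted p 0.0475) were higher in PMCA input, and 8.37% of all genes were called. Control input 4 was the highest control input for Pdgfra, so leaving it out raises that fold by construction.

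The effect of PMCA in IP was also set against that in input in a fit of all 16 libraries. No member passed by limma or with voom weights (2.03% of all genes called), and 2 had an unadjusted p below 0.05, against 16.2% of all genes. Those were Nkx2-2, with a difference of 0.45 (SE 0.196, adjusted p 0.266), and Pdgfra, with -0.51 (SE 0.194, adjusted p 0.196). The Nkx2-2 difference between treatments in IP was therefore not shown to differ from the one in input. Without control 4, Myrf passed, with a difference of 0.69 (adjusted p 0.0301, 1.36% of all genes called), and without PMCA 4, Lhfpl3 passed, with -0.68 (adjusted p 0.0203, 2.75% of all genes called). Control 4 had the largest IP minus input of Myrf among control mice, and PMCA 4 that of Lhfpl3 among PMCA mice. Leaving them out therefore moves these differences in the direction seen by construction.

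**Figure D5:**
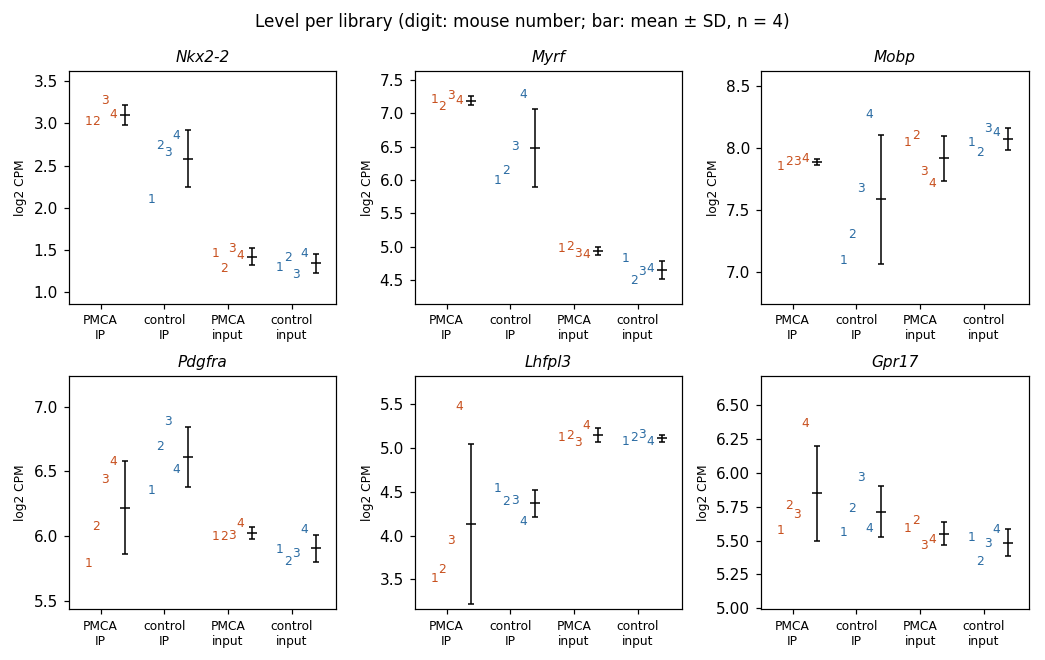
Level of 6 genes in each library, in log2 CPM, where the digit is the mouse number and the bar the mean ± SD of 4 libraries, for PMCA IP, control IP, PMCA input and control input from left to right. Mouse 4 is the highest control IP for Nkx2-2, Myrf and Mobp, and mouse 4 of the PMCA group is the highest IP for Lhfpl3 and Gpr17.

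Wider lists of the lineage were read the same way. Between treatments, the shares of all genes called were 19.6% in IP, 0.441% in input and 2.03% for the difference of effects. For IP over input they were 76.7% in PMCA mice and 77.4% in control mice. Of 34 other oligodendrocyte genes, 24 were higher and 2 lower in IP in PMCA mice, and 15 higher and 3 lower in control mice, with medians of 0.57 and 0.42. Without control 4, 17 were higher and 8 lower in control mice, with a median of 0.24. The most enriched in PMCA mice were the protease Klk6 (1.91 in PMCA mice and 1.28 in control mice), the cytokine Il33 (1.54 and 1.63), the carbonic anhydrase Car2 (1.45 and 1.4) and the actin-severing Gsn (1.22 and 0.99). Between treatments 1 of 34 was called in IP, Klk6, which lay at 6.34, 6.49, 6.31 and 7.29 in PMCA IP against 4.46, 5.61, 5.41 and 6.28 in control IP (log2 fold 1.17, SE 0.343, adjusted p 0.039). The groups did not overlap, as for 25.5% of all genes tested in IP, with PMCA IP 3 just above control IP 4. Without control 4, 13 of the 34 were higher in PMCA IP, Klk6 among them, against 17.3% of all genes called in either direction. The mean of the 34 was highest in control IP 4, at 6.79 against 5.76 to 6.37 in the other IP libraries, so leaving it out raises that mean fold by construction. Klk6 did not pass when any of the other 7 mice was left out (log2 folds of 0.84 to 1.27, adjusted p 0.0614 to 0.0813). None of the 34 was called in input or in the difference of effects by limma, with 6 and 0 at an unadjusted p below 0.05.

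Of 10 genes of newly formed oligodendrocytes, 8 were higher and none lower in IP in PMCA mice, and 7 higher and 1 lower in control mice (medians 1.04 and 0.81). The highest log2 folds of IP over input were 2.89 for Tcf7l2 in PMCA mice and 2.49 for Itpr2 in control mice. Those are nearer the astrocyte marker medians (3.28 and 3.20) than the mature gene medians (0.81 and 0.62). The cell type behind the levels of these 10 genes was not tested. In IP 4 of the 10 were higher in PMCA mice and none lower, against the 19.6% of all genes called in either direction, with a median log2 fold of 0.13. Tcf7l2, a transcription factor of the step from precursor to oligodendrocyte, was at 4.19, 4.2, 3.90 and 3.68 in PMCA IP against 3.41, 3.48, 3.59 and 3.32 in control IP (0.54, SE 0.124, adjusted p 0.016). Zfp488, a partner of OLIG2, was at 2.36, 2.27, 2.43 and 2.28 in PMCA IP against 1.57, 1.8, 1.93 and 1.93 in control IP (0.53, SE 0.115, adjusted p 0.0137). The neurofascin gene Nfasc (0.47, adjusted p 0.00767) and Itpr2 (0.39, adjusted p 0.0104), the IP3 receptor best known from astrocytes, were the others. For all 4 the PMCA IP libraries lay above the control IP libraries, while 25.5% of all genes tested in IP had no overlap in either direction. In input none of the 10 was called by limma, with 3 at an unadjusted p below 0.05, and in the difference of effects none was called, with 2.

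Of 16 other precursor genes, 14 were higher and 2 lower in IP in PMCA mice, and 14 higher and 1 lower in control mice (medians 0.62 and 0.92). Ptprz1 (2.86 in PMCA mice and 3.08 in control mice), Sox6 (2.32 and 2.41) and Cspg5 (2.19 and 1.82) were among the most enriched, and astrocytes are known to express these as well. In PMCA IP 2 were higher, Cspg5 (0.44, adjusted p 0.0149) and Xylt1 (0.28, adjusted p 0.0406), and 2 lower, Nxph1 (-0.53, adjusted p 0.00195) and Megf11 (-0.27, adjusted p 0.0268). Nxph1, a neurexin ligand, was at 4.37, 4.32, 4.45 and 4.44 in PMCA IP against 5.0, 4.89, 4.91 and 4.89 in control IP, and its effect in IP differed from that in input (-0.43, adjusted p 0.0191), as did that of Megf11 (-0.39, adjusted p 0.0284). In PMCA input Ptprz1 was higher (0.41, adjusted p 0.0371).

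Of 26 genes for signals that act on precursors, 19 were higher and 5 lower in IP in PMCA mice, and 20 higher and 5 lower in control mice (medians 1.25 and 1.04), led in PMCA mice by the receptors Notch1 (2.94 and 3.0), Fgfr1 (2.91 and 2.51) and Bmpr1b (2.72 and 2.74) and the growth factor Fgf2 (2.85 and 2.49), while the endothelin receptor Ednrb (2.65 and 2.85) was among the leaders in control mice. In PMCA IP 4 were higher and 1 lower. The morphogen gene Shh was at 1.03, 1.18, 0.88 and 1.09 in PMCA IP against 2.05, 1.95, 1.94 and 1.66 in control IP (-0.85, SE 0.132, adjusted p 0.00386), with no overlap, as for 25.5% of all genes tested in IP. Fgfr1 (0.47, adjusted p 0.0227), Notch1 (0.46, adjusted p 0.00515), the ligand gene Pdgfc (0.42, adjusted p 0.0347) and the hedgehog receptor gene Ptch1 (0.31, adjusted p 0.0371), named after its values were seen, were higher. In input Notch1 was higher too (0.52, adjusted p 0.0478), and none of the 26 was called in the difference of effects, with 5 at an unadjusted p below 0.05.

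Of 11 proliferation genes, 9 were lower and 1 higher in IP than in input in each treatment (medians -1.69 in PMCA mice and -1.84 in control mice). In PMCA IP the cycling marker Mki67 was higher, at 1.55, 1.8, 2.59 and 2.73 against 0.93, 0.97, 0.81 and 0.96 in control IP (1.25, SE 0.247, adjusted p 0.0088), while the replication genes Mcm5 (-0.45, adjusted p 0.0498) and Pcna (-0.32, adjusted p 0.00705) were lower. None was called in input, with 0 at an unadjusted p below 0.05, or in the difference of effects, with 3.

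Markers of other cells differed between the treatments in the same IP libraries. In PMCA IP 4 of 12 astrocyte markers were higher and none lower (median 0.36), 6 of 12 neuron markers were lower and none higher (-0.38), and 4 of 10 microglia (0.85), 4 of 8 endothelial (0.72) and 3 of 5 fibroblast markers (0.67) were higher. Over the 15776 genes tested in IP, 19.6% were called, 1506 higher and 1585 lower. Without control 4, 7 of the 10 microglia markers were higher, against 17.3% of all genes called in either direction. Of 6 mural markers 1 was higher and 2 lower (-0.60). In input 2 astrocyte markers were higher and 1 fibroblast marker lower, and none of the neuron, microglia, endothelial or mural markers was called by limma, with 2, 6, 3 and 1 at an unadjusted p below 0.05. Their part in the differences of the lineage genes was not tested.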

How the data were processed

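Per the labels' protocols, total RNA was extracted with an RNeasy kit, made into strand-specific Illumina TruSeq libraries after RiboZero Gold depletion and sequenced on a HiSeq. The submitters' processing notes name STAR, HTSeq, edgeR, limma and mm10; roles and versions are not given there. What the authors deposited is log2 CPM, 20730 genes by 16 libraries, after scaling factors had been applied. The values of all genes came out as whole reads (100.0% within 0.001) once a prior count of 0.25 reads on average was undone, which gave the read totals.

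Levels were used as deposited. A gene was tested where 4 or more libraries of a comparison had 10 reads or more. limma 3.58.1 in R 4.3.3 (lmFit, eBayes with trend, two-sided) was fitted to 5 comparisons: PMCA against control in IP and in input, IP against input in PMCA and in control mice, and the difference of the PMCA effects. The code was tested on simulated data. Alternatives were total reads without scaling factors, no filter, at least 50 reads, a prior count of 2, voom weights on the recovered reads, a block for the mouse or for the range of animal numbers, each mouse left out, and, chosen after seeing the data, control 4 and PMCA 4 both left out.

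Each IP and input of a mouse share an animal, per the labels. Over 14513 genes, deviations from the group means correlated at r 0.19 to 0.45 within a mouse (8 pairs) and -0.32 to 0.10 between mice (24 pairs). No libraries were identical, and the closest replicates differed by more than sampling noise (chi-square per degree of freedom 4.72).

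The members and the gene lists were chosen with earlier results of these data known. Values per library are given for members called between treatments, for the 4 members of each class with the highest and the 2 with the lowest fold of IP over input in control mice, and for those described beside them; from each other list up to 4 genes with the largest called fold are named, and marker lists are given by count. Promoter sequences are from RefSeq (GRCm38.p6), matched by symbol for 21 of 29 members, and positions from the same annotation. Levels were not compared between genes, since transcript lengths were not used here.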

Additional observations from a re-analysis of the deposited data

Results flagged for a closer look

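In 8 of the 124 groups of 4 libraries examined, 1 library lay apart from the other 3 by more than Dixon's test allows, where chance gives about 1 in 20. That share is near the one chance gives. All 8 were in input, so control IP 4 was not flagged for any member or for the mean of the mature genes. PMCA input 2 was high for Mog (6.51 log2 CPM against 6.21 to 6.23 in the other PMCA inputs), for Ugt8a (6.90 against 6.66 to 6.69) and for the mean of the 17 mature genes (7.20 against 6.98 to 7.01). PMCA input 4 was high for Pdgfra (6.09 against 5.99 to 6.00) and low for Bmp4 (0.67 against 1.03 to 1.07). PMCA input 3 was high for Matn4 (3.10 against 2.83 to 2.87). Control input 2 was low for Fa2h (4.54 against 4.76 to 4.78) and for Matn4 (2.53 against 3.05 to 3.12).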

How the results depend on the processing

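Of 710 values of the 64 member results followed, 629 kept their direction and side of the threshold, 46 lost their call, 28 gained one and 7 changed sign. The sign changes were Mag between treatments in IP without control 1 (-0.0117, and up to 0.4487 with another mouse left out), Gpr17 in control mice (-0.0443) and Ugt8a (-0.0661) and Pdgfra (-0.11) in PMCA mice by total reads, Mbp in control mice without control 1 (0.0037, and as low as -0.3635 with another left out), and Mobp in PMCA mice without PMCA 1 (0.0264) or PMCA 2 (0.0313, and as low as -0.1042 with another left out). The cause was not tested. Among members that passed nowhere, 106 further values changed sign.

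Members called between treatments in IP numbered 1, but 0 without a filter or with the title numbers as a block, 6 with control 4 and PMCA 4 both left out, and 0 to 5 with a mouse left out. With both left out, 3582 of 15551 genes were called in IP. The 6 members were Mobp, Myrf, Nkx2-2, Olig1 and Tspan2, which were higher, and Lhfpl3, which was lower. In input they numbered 0, but 1 with the title numbers as a block and 0 to 2 with a mouse left out. The difference of effects gave 0, but 2 with both mice left out (473 of 16521 genes called) and 0 to 1 with a mouse left out. For IP over input in control mice, total reads gave 14 members (10 higher) in place of 22, and a mouse left out 15 to 24. The replicate block (the mouse) gave 24 in control mice, 23 in PMCA mice and 0 for the difference of effects, and beyond Opalin and Ugt8a it changed no member's call.

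Over all genes, the count in IP was 3091, against 1701 with the source-name numbers as a block and 1683 to 3578 with a mouse left out. In input it was 72, against 860 with the title numbers as a block, 32 with the source-name numbers, 43 without a filter, 781 with both mice left out and 4 to 1357 with a mouse left out. The difference of effects gave 339 genes, against 23 to 458 with a mouse left out. By total reads, 4300 genes were higher and 8891 lower in IP in PMCA mice (6128 and 6422 as scaled), and 4504 and 8382 in control mice (6299 and 6161). With 4 mice a group and 34 reads for the faintest member, small differences were not detectable.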
